A study of Mus musculus with 6 samples.

Results

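Described here are 10 genes of the brain's extracellular matrix, chosen by gene symbol: the lecticans Vcan, Bcan, Ncan and Acan, the membrane chondroitin sulfate proteoglycans Cspg4, Cspg5 and Ptprz1, the tenascins Tnc and Tnr, and the hyaluronan receptor Cd44. All 10 were found among the 26264 genes of the count table, and all 10 were among the 14554 genes that passed the filter on low counts. RNA had been sequenced in 6 bulk libraries from cultures of adult mouse spinal cord neural stem cells that carry GFP as a reporter of Pdgfra, a growth factor receptor known as a marker of oligodendrocyte precursor cells. The design asks what distinguishes the reporter-positive cells, sorted by fluorescence, in a culture that can give rise to the oligodendrocyte lineage.

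The GFP-positive group held 3 libraries, with the genotype written PDGFRaGFP/+, and the GFP-negative group held 3 libraries, with the genotype written PDGFRaGFP/-. Both fractions came from C57BL6J spinal cord cultures kept with EGF and FGF2, and neither group was given another treatment. The labels give no age beyond adult, do not say how the reporter was built, and do not say whether replicates were separate animals or cultures. A p-value here therefore reflects spread among samples that may be technical repeats. Each library carries a number (314, 315 or 316, here replicates 1, 2 and 3) that a GFP-positive and a GFP-negative library share.

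Chondroitin sulfate proteoglycans are core proteins with long sulfated sugar chains. Lecticans bind hyaluronan at one end and tenascins at the other, so that hyaluronan, lecticans and tenascins form the loose matrix that surrounds neural cells. In the spinal cord this matrix is known for limiting axon growth and remyelination after injury, and several of its genes are used as markers: Cspg4, which encodes the NG2 antigen, and Tnr for the oligodendrocyte lineage, Tnc and Cd44 for radial glia and astrocytes.

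Total counts lay between 31067850 and 45207335 per library, and the 10 genes took 0.711% ± 0.0112 (SD, n = 3) of all counts in the GFP-positive fraction, against 1.08% ± 0.0163 in the GFP-negative one. Levels are given as CPM, the read count scaled by TMM to a common library size. Tnc (mean 184 against 3187 CPM) and Ncan (924 against 2458 CPM) weigh heavily in the lower share of the GFP-positive fraction. The share is thus no measure of the 10 genes as a group, of which Vcan, Cspg4 and Tnr were higher there. Pdgfra, the gene behind the sort, stood at 237, 205 and 245 CPM across the GFP-positive libraries, against 8.04, 19.3 and 13.9 CPM across the GFP-negative ones, so every library matched its label. Replicate 2 stood apart within both fractions: among GFP-negative libraries it had the most Pdgfra and among GFP-positive ones the least, and it had the most Col3a1 of each fraction, at 102 and 9.18 CPM. The neural stem cell genes Nes and Sox2, looked up after the other values were seen, were present in both fractions, with group means of 294 and 242 CPM on the GFP-positive side, against 926 and 318 CPM on the other. By the test given below, 26.1% of all tested genes were higher in GFP-positive cells and 29.2% lower, a background for the marker counts. Of 13 tested astrocyte markers 13 were lower in GFP-positive cells, and their summed level was 533 to 667 CPM against 4226 to 5348 CPM. Of 13 tested precursor markers, 13 were higher (5047 to 5296 against 2377 to 2760 CPM). That list holds Cspg4 and Tnr, and also Pdgfra, the gene behind the sort. Olig1, with group means of 2108 and 1488 CPM, and Olig2, with 861 and 543 CPM, made up most of both sums. Neuron markers had 5 of 7 tested higher and none lower (45.6 to 52.8 against 12.7 to 21.2 CPM in sum), while Gad1 and Gad2 did not pass. Slc17a6, Slc32a1, Chat and Stmn2 of that list were not tested, at 8 counts or fewer in any library. Mature oligodendrocyte markers had 3 of 5 tested higher and 1, Aspa, lower (211 to 232 against 130 to 181 CPM). Cnp made up most of these sums, with group means of 187 and 139 CPM. Mog, Mag, Mobp, Mal, Opalin and Ermn were not tested, at 12 counts or fewer in any library. Ependymal markers had 5 of 10 tested lower and none higher (140 to 154 against 178 to 185 CPM). Most of both sums was Rfx3, which did not pass, with group means of 137 and 139 CPM. Among the 5 lower ones, Foxj1 had means of 4.92 against 13.3 CPM and Tm4sf1 1.02 against 16.3 CPM. No Schwann cell marker of 4 tested passed, and 1 of 3 endothelial markers was lower. Microglial markers summed to at most 2.65 CPM in any library, with C1qa, C1qb and Trem2 at 0 counts in all 6.

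Of the 10 genes, 3 rose in GFP-positive cells (Tnr, Cspg4 and Vcan), 3 fell (Cd44, Tnc and Ncan) and 4 did not pass the test (Acan, Bcan, Cspg5 and Ptprz1). The test was edgeR's quasi-likelihood F test with Benjamini-Hochberg adjustment over all tested genes, with adjusted p below 0.05 as the threshold. Across all tested genes, 55.4% passed in either direction, 26.1% as higher and 29.2% as lower, so 6 of 10 is near the background. All 6 of them passed with a log2 fold change above 1 in size, which 18.3% of all tested genes did. The median size of the log2 fold change was 1.10 over the 10 genes and 0.36 over all tested genes, while the signed medians were 0.0053 and -0.0058. In 7 of the 10 genes the groups did not overlap, as in 64.2% of all tested genes. The 10 genes were chosen with earlier results of these data known. Their contrast with all tested genes is thus descriptive and no evidence about the family. In bulk samples, fewer cells of a type and less RNA per cell cannot be told apart.

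**Figure D1:**
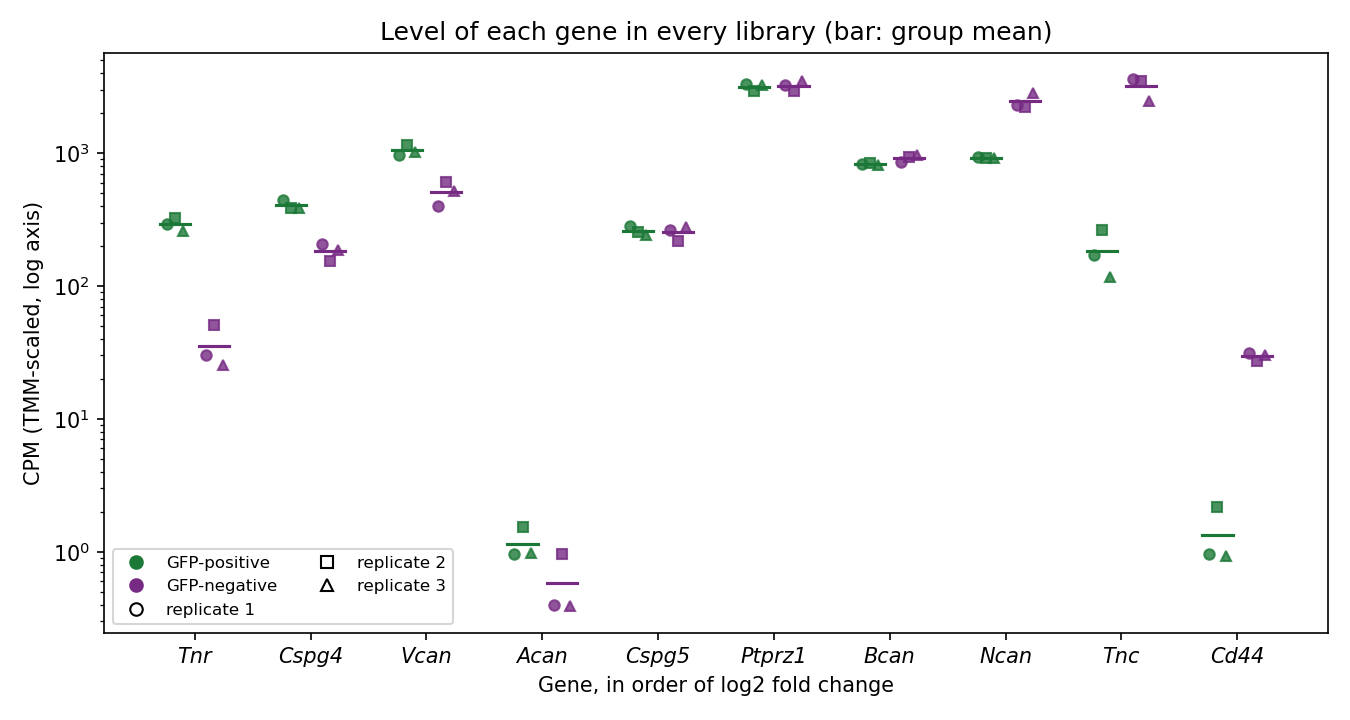
CPM of the 10 genes in each of the 6 libraries on a log axis, with genes ordered by log2 fold change, colour for the sorted fraction, symbol shape for the replicate and a bar at the group mean. The fractions separate widely for Tnr, Tnc and Cd44, overlap for Acan, Cspg5 and Ptprz1, and for Tnc the GFP-positive libraries spread from 116 to 263 CPM.

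The upstream sequences of Tnr and Vcan, which rose, and of Tnc and Cd44, which fell, are shown so that a reader can compare the start regions of genes of a shared matrix that differed in opposite directions. Each run is the 250 bases before a RefSeq transcription start on build GRCm38.p6, read 5′ to 3′ on the gene's strand. No annotated exon lies inside these runs, and the counts themselves were made on mm39. Tnc has another RefSeq start, not shown, whose window at chr4:64046937-64047186 holds 79 annotated exon bases. Capitals mark letters that match, on either strand, any of 7 motifs. The motif of the TATA box was searched as TATAAA, the motif of the GC box as GGGCGG, an E-box motif as CAGCTG, the core motif of Sox factors as ACAAAG, the motif of AP-1 as TGANTCA, that of RBPJ as TGGGAA and that of TEAD factors as GGAATG. No match overlapped another in these runs. Tnr lies at chr1:159523519-159523768 on the plus strand, and the others on the minus strand, Vcan at chr13:89742513-89742762, Tnc at chr4:64047016-64047265 and Cd44 at chr2:102901666-102901915.
Tnr: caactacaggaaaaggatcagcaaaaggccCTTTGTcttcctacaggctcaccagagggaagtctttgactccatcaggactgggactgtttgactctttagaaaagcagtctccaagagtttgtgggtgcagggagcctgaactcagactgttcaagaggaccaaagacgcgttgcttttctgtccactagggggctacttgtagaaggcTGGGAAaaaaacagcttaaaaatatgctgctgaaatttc
Vcan: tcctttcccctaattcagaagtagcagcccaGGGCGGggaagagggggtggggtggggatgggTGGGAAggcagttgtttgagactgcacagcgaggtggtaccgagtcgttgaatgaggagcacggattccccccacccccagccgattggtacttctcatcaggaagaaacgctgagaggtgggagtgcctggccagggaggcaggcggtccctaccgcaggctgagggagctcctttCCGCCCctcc
Tnc: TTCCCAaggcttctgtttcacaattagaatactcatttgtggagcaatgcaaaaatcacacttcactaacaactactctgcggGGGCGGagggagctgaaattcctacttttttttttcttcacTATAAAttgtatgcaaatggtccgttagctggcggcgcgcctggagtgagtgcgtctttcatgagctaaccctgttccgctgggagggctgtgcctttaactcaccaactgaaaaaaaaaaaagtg
Cd44: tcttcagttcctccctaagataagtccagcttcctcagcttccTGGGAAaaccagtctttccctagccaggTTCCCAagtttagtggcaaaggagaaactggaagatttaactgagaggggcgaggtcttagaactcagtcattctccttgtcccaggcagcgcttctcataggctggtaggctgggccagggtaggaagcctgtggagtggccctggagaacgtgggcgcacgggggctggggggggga
Tnr had the Sox letters once and the RBPJ letters once, and Cd44 had the RBPJ letters at 2 places. Tnc had a TATA box, a GC box and the RBPJ letters, and Vcan had 2 GC boxes and the RBPJ letters. The RBPJ letters occurred in 21.6% of 32851 such windows of all genes, the GC box in 32.7%, the Sox letters in 16.5% and the TATA box in 12.4%. CpG dinucleotides were at 0.147 of the number expected from base composition in Tnr and 0.257 in Cd44, against 0.423 in Vcan and 0.638 in Tnc, so the split by CpG content did not follow the split by direction. A match of letters is a description of the sequence and not a binding site. Of the 10 genes 9 had a window in the RefSeq table, and Cspg5 had none.

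Among the lecticans, Vcan rose, Ncan fell and Bcan and Acan did not pass the test. Vcan (Entrez 13003), versican, is the largest lectican. It stood at 973, 1156 and 1028 CPM across the GFP-positive libraries, against 402, 601 and 520 CPM across the GFP-negative ones. Every GFP-positive library lay above every GFP-negative one, and in both fractions replicate 2 was the highest. On the log2 scale the fold change was 1.05 (SE 0.14, edgeR adjusted p = 4.00e-04), or 2.07-fold higher, and the 3 same-numbered pairs gave 1.27, 0.94 and 0.98.

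Ncan (Entrez 13004), neurocan, moved the opposite way. Its GFP-positive libraries lay within a narrow range, at 927, 920 and 926 CPM, and its GFP-negative libraries at 2309, 2235 and 2831 CPM. The groups were far apart, with the larger spread on the GFP-negative side (SD 325 against 4.0 CPM, n = 3 each). Its log2 fold change was -1.41 (SE 0.10, edgeR adjusted p = 1.34e-05), with -1.32, -1.28 and -1.61 in the pairs.

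Bcan (Entrez 12032), brevican, differed little. It was at 832, 845 and 817 CPM across the GFP-positive libraries, against 856, 930 and 971 CPM across the GFP-negative ones. The groups did not overlap, yet the log2 fold change of -0.14 (SE 0.06) did not pass (edgeR adjusted p = 0.0839), with a 95% interval, unadjusted for the number of genes, from -0.29 to 0.00097. Without GFP-negative replicate 1, the lowest of its group, the adjusted p was 0.0287 at a log2 fold change of -0.19.

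Acan (Entrez 11595), aggrecan, the lectican of cartilage and of perineuronal nets, had few reads. Its counts were 35, 69 and 36 across the GFP-positive libraries, against 13, 30 and 12 across the GFP-negative ones, that is 0.953, 1.52 and 0.979 against 0.394, 0.956 and 0.389 CPM. Replicate 2 was the highest in both fractions, and the GFP-negative replicate 2 lay just above GFP-positive replicate 1. The log2 fold change of 1.00 (SE 0.42) did not pass (edgeR adjusted p = 0.0771; 95% interval 0.021 to 1.97). It passed with the replicate number as a block (log2 fold change 1.04, adjusted p = 0.0295), without replicate 2 (1.30, adjusted p = 0.0242) and without GFP-negative replicate 2 alone (1.57, adjusted p = 0.00892).

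Because the lecticans share their partners, their levels were also set against each other per kilobase of exon, on the CPM per kb scale. In GFP-positive cells Bcan made up 50.4% ± 0.578 of the summed lectican level (SD, n = 3), Ncan 31.7% ± 0.797, Vcan 17.9% ± 1.23 and Acan 0.0379% ± 0.0097. In GFP-negative cells Ncan led with 56.6% ± 2.80, followed by Bcan with 37.6% ± 1.81, Vcan with 5.83% ± 1.16 and Acan with 0.0131% ± 0.0078. The leading lectican transcript was therefore Bcan in each GFP-positive library and Ncan in each GFP-negative library. With the longest transcript in place of the union of exons, Bcan led in GFP-positive cells with 55.4% and Ncan in GFP-negative cells with 50.5%. Reads per gene do not separate splice forms, and both Vcan and Bcan have several.

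**Figure D2:**
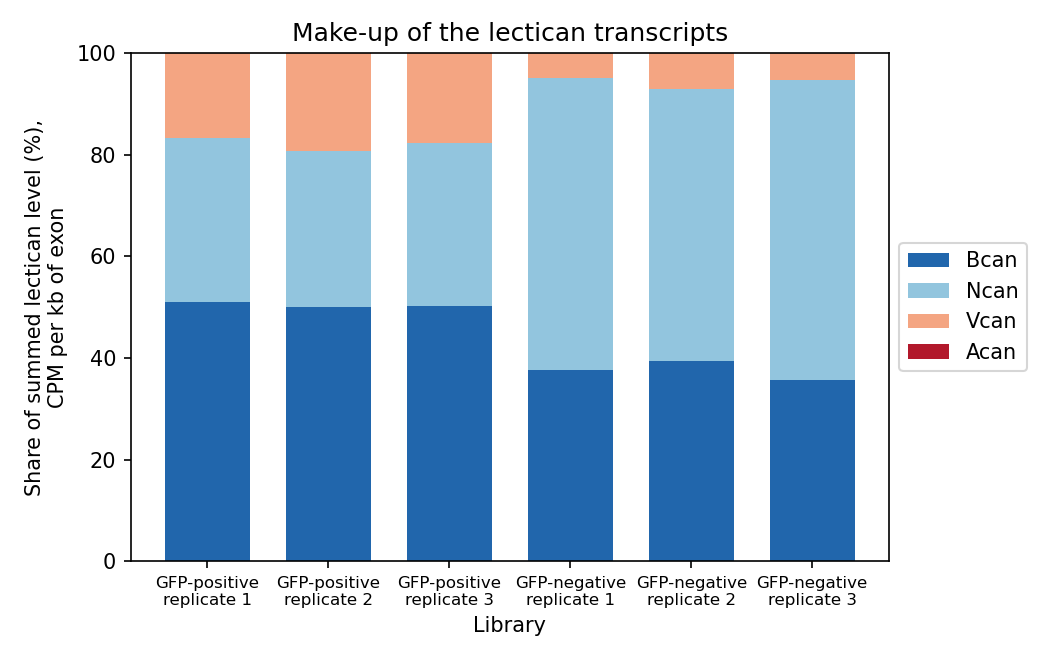
Share of the summed lectican level, in CPM per kb of exon, taken by each lectican in each of the 6 libraries (stacked bars adding to 100%). Bcan takes 49.99% to 51.1% in the GFP-positive libraries and Ncan 53.4% to 58.9% in the GFP-negative ones, while Acan, at 0.049% or less, is too thin to see.

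Of the membrane proteoglycans, Cspg4 rose and Cspg5 and Ptprz1 did not pass the test. Cspg4 (Entrez 121021), the NG2 antigen of precursor cells and pericytes, was at 440, 387 and 384 CPM across the GFP-positive libraries, against 208, 153 and 188 CPM across the GFP-negative ones. No GFP-negative library reached a GFP-positive one. The log2 fold change was 1.14 (SE 0.11, edgeR adjusted p = 8.14e-05), a 2.21-fold difference, and 1.08, 1.34 and 1.03 in the pairs. Pdgfra, used with Cspg4 to mark the same cells, differed by a log2 fold change of 4.06 between the same libraries. The level of Cspg4 in GFP-negative cells, 183 CPM on average, was 15.3 CPM per kb of exon. Of the fibroblast and mural list, which includes pericyte markers, the GFP-negative libraries held 30, 33 and 23 counts of Abcc9, 2, 13 and 5 of Pdgfrb, 3, 2 and 1 of Rgs5, and 25, 3190 and 635 of the fibroblast gene Col3a1. The part of such cells in the level of Cspg4 was not tested.

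Ptprz1 (Entrez 19283) encodes a receptor tyrosine phosphatase that carries chondroitin sulfate, and its secreted form is known as phosphacan. It had the most reads of the 10 genes in each GFP-positive library, at 3326, 2933 and 3253 CPM, and stood at 3277, 2928 and 3474 CPM in GFP-negative libraries. The 2 groups overlapped, and replicate 2 was the lowest in both fractions. Between groups its log2 fold change was -0.025 (SE 0.09, edgeR adjusted p = 0.824), and its 95% interval ran from -0.23 to 0.17. Differences inside that interval, which is unadjusted for the number of genes, are compatible with these libraries.

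Cspg5 (Entrez 29873), neuroglycan C, was at 284, 254 and 242 CPM across the GFP-positive libraries, against 263, 220 and 278 CPM across the GFP-negative ones. The groups overlapped, and the pairs pointed in both directions (0.11, 0.21 and -0.20). For Cspg5 the log2 fold change was 0.036 (SE 0.10, edgeR adjusted p = 0.775; 95% interval -0.19 to 0.26). The sign of this value and that of Ptprz1 turned when single libraries were left out.

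The 2 tenascins moved in opposite directions, each by more than a log2 fold change of 3. Tnr (Entrez 21960), tenascin-R, is made mainly by cells of the oligodendrocyte lineage. It stood at 294, 324 and 260 CPM across the GFP-positive libraries, against 30.1, 50.5 and 25.6 CPM across the GFP-negative ones. The lowest GFP-positive library was well above the highest GFP-negative one, replicate 2, which was also the GFP-negative library with the most Pdgfra. Tnr thus differed by 3.04 on the log2 scale (SE 0.24, edgeR adjusted p = 2.64e-05), or 8.25-fold, with pair values of 3.29, 2.68 and 3.34. By fold change Tnr ranked 57 from the top of all tested genes.

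Tnc (Entrez 21923), tenascin-C, a tenascin of radial glia, astrocytes and healing tissue, was at 172, 263 and 116 CPM across the GFP-positive libraries, against 3591, 3511 and 2459 CPM across the GFP-negative ones. The groups lay far apart, and GFP-positive replicate 2 held the most Tnc of its group. The log2 fold change was -4.12 (SE 0.31, edgeR adjusted p = 2.23e-05), a 17.3-fold difference, with -4.38, -3.74 and -4.41 in the pairs. Lower by more than 4 on the log2 scale and past the threshold were 0.715% of all tested genes, and Tnc and Cd44 were among them. All 13 tested astrocyte markers, at 533 to 667 against 4226 to 5348 CPM in sum, moved the same way as Tnc, Ncan and Cd44, and their part in these results was not tested.

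Within a library, the ratio of Tnr to Tnc reads does not depend on how libraries are scaled. There were 1.70, 1.23 and 2.24 Tnr reads for each Tnc read in the GFP-positive libraries, and 0.0084, 0.0144 and 0.0104 in the GFP-negative ones. The mean log2 ratio was 0.74 ± 0.43 on the GFP-positive side, against -6.53 ± 0.39 on the GFP-negative one (SD, n = 3), a difference of 7.28. An exact two-sided permutation test gave p = 0.1, which is the smallest value that 3 against 3 libraries allow. After adjustment over the 3 ratios tested it was also 0.1. Tnr and Tnc had each separated the groups fully, in opposite directions. Their ratio therefore had to give this value, and the test adds nothing to the results of the single genes. Per kilobase of exon, Tnc and Tnr were level in GFP-positive cells, at 23.6 ± 9.52 and 22.7 ± 2.49 CPM per kb, and Tnc led in GFP-negative cells with 410 ± 81.3 against 2.75 ± 1.03 CPM per kb. In the GENCODE annotation an antisense transcript shares 443 of the 12867 exon bases of Tnr, and one on the opposite strand shares 176 of the 7772 exon bases of Tnc. The strand setting of the counting is not given in the sources used here.

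Cd44 (Entrez 12505), the cell surface receptor for hyaluronan, had the most negative log2 fold change of the 10 genes. Its counts were 35, 98 and 34 across the GFP-positive libraries, against 1024, 857 and 933 across the GFP-negative ones, that is 0.953, 2.16 and 0.925 against 31.1, 27.3 and 30.2 CPM. The GFP-negative libraries lay close together, and GFP-positive replicate 2 held the most Cd44 of its group. The log2 fold change was -4.42 (SE 0.28, edgeR adjusted p = 1.09e-05), a 21.4-fold difference, and -5.03, -3.66 and -5.03 in the pairs. Fibroblast and mural markers, of which 3 of 10 were tested and 1 was lower, summed to 1.06, 9.96 and 1.66 CPM across the GFP-positive libraries, against 3.58, 105 and 23.5 CPM across the GFP-negative ones. Replicates 2 and 3 owed most of these sums to Col3a1, which did not pass, at 9.18 and 1.12 against 102 and 20.6 CPM. In replicate 2, with the highest marker sum of each fraction, Cd44 was highest of the GFP-positive libraries and lowest of the GFP-negative ones. The part of these markers in the Cd44 result was not tested. Without replicate 2 the log2 fold change of Cd44 was -5.01.

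Set against the hyaluronan-binding Vcan, there were 1020, 534 and 1112 Vcan reads per Cd44 read in GFP-positive libraries and 12.95, 22.02 and 17.2 in GFP-negative ones. For Cspg4 the ratios were 462, 179 and 416 against 6.69, 5.60 and 6.21. The mean log2 ratios differed between fractions by 5.64 and 5.72, again with an exact permutation p = 0.1 each (0.1 adjusted over the 3 ratios). Vcan and Cspg4 had separated the groups fully in the direction opposite to Cd44, so these p-values were likewise fixed in advance. Replicate 2 had the lowest ratio of the GFP-positive libraries for both pairs of genes, and of the GFP-negative libraries it had the highest ratio of Vcan and the lowest of Cspg4.

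**Figure D3:**
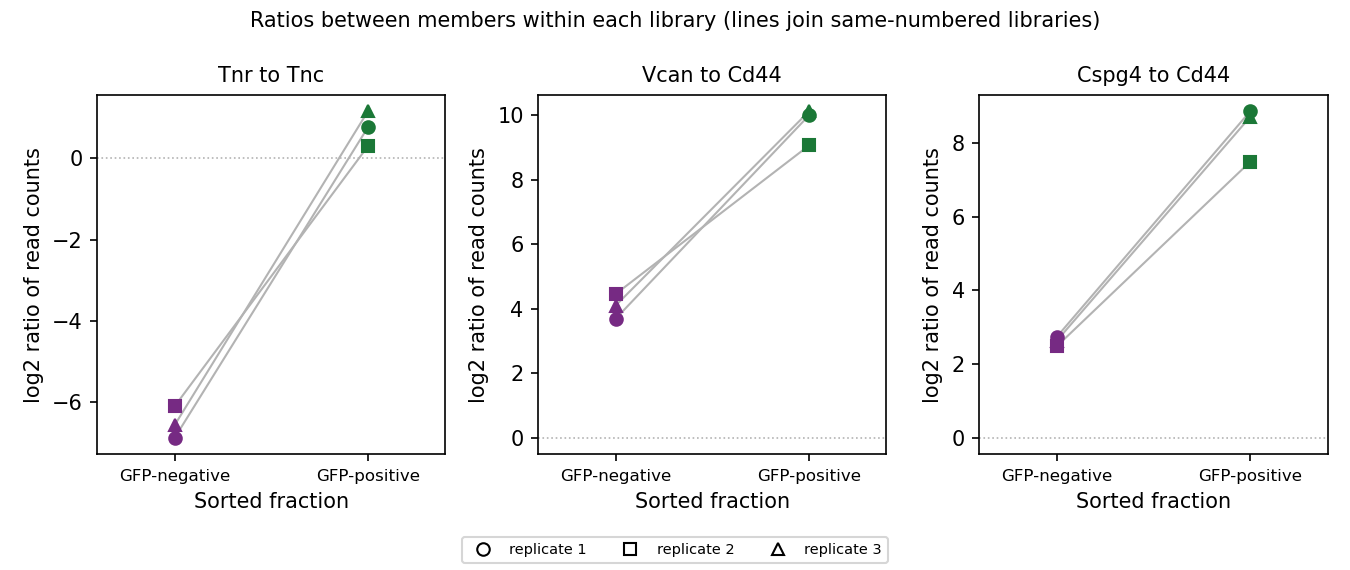
Log2 ratio of read counts between pairs of genes in each library, GFP-negative left and GFP-positive right, with lines joining same-numbered libraries and symbol shape for the replicate. All 3 ratios are higher in every GFP-positive library, and the Tnr to Tnc ratio goes from a mean of -6.53 to 0.74.

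**Figure D4:**
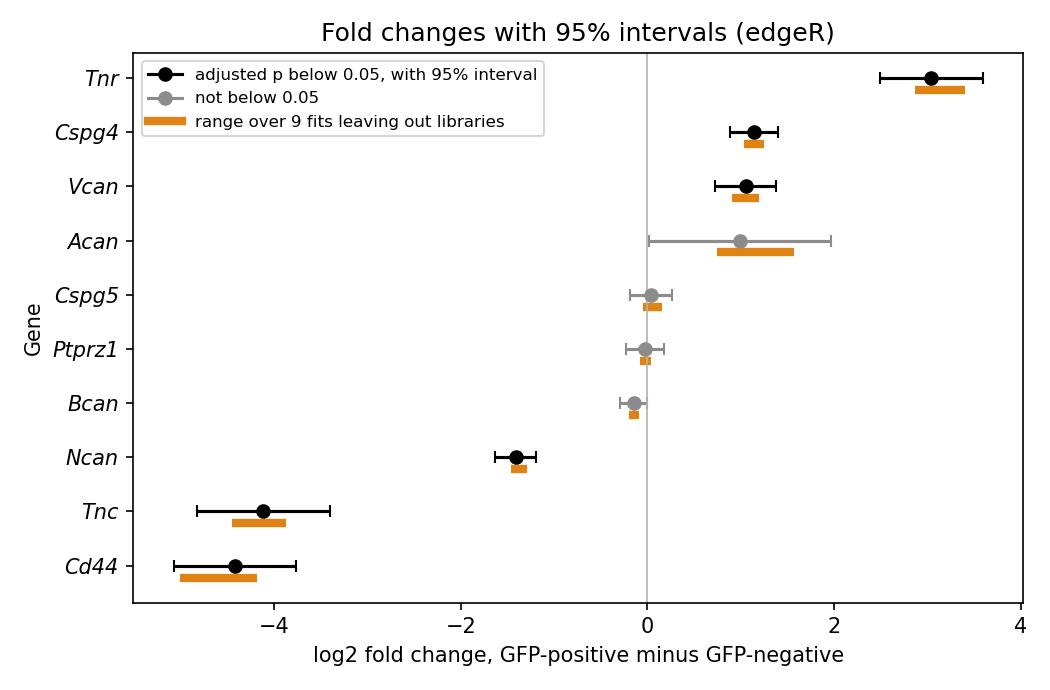
Log2 fold change (GFP-positive minus GFP-negative) of the 10 genes with 95% intervals, black where the adjusted p was below 0.05, and in orange the range over 9 fits with a library or a same-numbered pair removed. The intervals of Bcan, Cspg5 and Ptprz1 span 0, from -0.29 at the lowest to 0.26 at the highest, and that of Acan runs from 0.021 to 1.97.

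Ordered by CPM per kb of exon, GFP-positive cells had Ptprz1 (223 ± 14.7, SD, n = 3) and Bcan (205 ± 3.48) first, whose ranges overlapped, then Ncan (128 ± 0.556), Vcan (72.8 ± 6.50), Cspg4 (33.9 ± 2.63) and Cspg5 (25.8 ± 2.13). Tnc (23.6 ± 9.52) and Tnr (22.7 ± 2.49) followed, with ranges that overlapped that of Cspg5, and Tnc also that of Cspg4, while Cd44 (0.199 ± 0.104) and Acan (0.154 ± 0.0431) came last, with overlapping ranges. In GFP-negative cells Tnc (410 ± 81.3) and Ncan (342 ± 45.1) came first with overlapping ranges, then Ptprz1 (226 ± 19.4) and Bcan (226 ± 14.4), which also overlapped. Vcan (35.1 ± 6.92), Cspg5 (25.2 ± 2.99), Cspg4 (15.3 ± 2.32), Cd44 (4.36 ± 0.290), Tnr (2.75 ± 1.03) and Acan (0.0776 ± 0.0436) followed. Cd44 thus stood above Tnr in every GFP-negative library and below it in every GFP-positive one. With the length of the longest transcript the order in GFP-positive cells was the same, and in GFP-negative cells Ptprz1 moved ahead of Ncan. By that length Ptprz1 and Bcan no longer overlapped in either fraction. Their means were then 393 and 265 CPM per kb in GFP-positive cells, and 400 and 293 in GFP-negative cells.

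Of 28 listed enzymes that build chondroitin sulfate chains 27 were tested, of which 6 were higher, 10 lower and 11 did not pass. These shares are near the 26.1% higher and 29.2% lower of all tested genes. The list had a median log2 fold change of -0.044, against -0.0058 over all tested genes. Ugdh, which makes the glucuronic acid donor, was at 112, 81.5 and 108 CPM across the GFP-positive libraries, against 32.8, 37.1 and 33.0 CPM across the GFP-negative ones, a log2 fold change of 1.55 (SE 0.12). Chst11, a chondroitin sulfotransferase, was higher by 0.89 (SE 0.06) and Dse, an epimerase that turns chondroitin into dermatan sulfate, by 0.69 (SE 0.16). Chst7, a chondroitin sulfotransferase that acts on a different position, was lower in GFP-positive cells, at 5.63 ± 0.622 against 39.2 ± 3.17 CPM (SD, n = 3; log2 fold change -2.80, SE 0.11). Csgalnact1, which starts the chain, and Chst14, a dermatan sulfotransferase, had values of -1.26 (SE 0.16) and -1.23 (SE 0.21). Sulfotransferases thus included members of either direction. Without replicate 1, 3 of the list were higher and 6 lower, and Dse did not pass (adjusted p = 0.0555).

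Of 20 listed hyaluronan genes 15 were tested, with 1 higher, 6 lower and 8 not passing, and a median of -0.23. No larger a share passed than the 55.4% of all tested genes. Hyal1, a lysosomal hyaluronidase, was at 1.42 ± 0.208 against 12.97 ± 4.31 CPM (SD, n = 3; log2 fold change -3.19, SE 0.26). Tnfaip6, which transfers proteins onto hyaluronan, had -1.79 (SE 0.12) and Hmmr, a hyaluronan-binding protein that is also a mitotic spindle gene, -0.57 (SE 0.09). The higher member was Habp4, named for hyaluronan binding and known as an RNA-binding protein, at 0.32 (SE 0.08), which did not pass without replicate 3 (adjusted p = 0.0815). The count of higher members was 2 with the replicate block, without replicate 1 or 2, and without any of the GFP-negative libraries, and 0 without replicate 3. The synthase Has2, at 2.32 ± 0.901 against 2.37 ± 1.98 CPM, and the link protein Hapln1, at 0.683 ± 0.293 against 0.712 ± 1.02 CPM (SD, n = 3), were low in both fractions; both were picked after looking at their values.

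Of the 8 proteases that cut lecticans and their inhibitor, all tested, 2 were higher, 4 lower and 2 did not pass, with a median of -0.71, beside 26.1% higher and 29.2% lower of all tested genes. Adamts5, an aggrecanase, was at 132, 146 and 139 CPM across the GFP-positive libraries, against 17.4, 51.1 and 19.4 CPM across the GFP-negative ones. Its GFP-negative replicate 2 lay apart from the others, and the log2 fold change of 2.25 (SE 0.37) was 2.93 without it. Timp3, the inhibitor of these proteases, was lower, at 41.6 ± 2.09 against 271 ± 62.9 CPM (SD, n = 3; log2 fold change -2.70, SE 0.16). Adamts4 and Adamts9 had -1.18 (SE 0.15) and -0.96 (SE 0.25), the latter not passing without replicate 3 (adjusted p = 0.0905). Adamts1 was higher by 0.67 (SE 0.20), and missed the threshold in 6 of the 9 fits with a library or pair removed (adjusted p up to 0.145). In those 6 fits 1 of the 8 was higher, while 3 were with the replicate block, without replicate 2 and without GFP-negative replicate 2.

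Receptors, ligands and binding partners of the 10 genes had 14 lower, 6 higher and 3 not passing of 23 tested and 26 listed, with a median of -0.71, beside the same 29.2% lower and 26.1% higher of all tested genes. With the replicate block 15 were lower. Ptprd, a receptor phosphatase of the family that binds chondroitin sulfate, was higher by 2.11 (SE 0.42). Its GFP-negative libraries held 46.9, 158 and 55.3 CPM, and without GFP-negative replicate 2 the value was 2.88. Cntn1, contactin, an axonal and glial partner of Ptprz1 and tenascin-R, was at 556, 938 and 505 CPM across the GFP-positive libraries, against 82.4, 329 and 112 CPM across the GFP-negative ones. Replicate 2 was the highest in both fractions, and the log2 fold change of 1.93 (SE 0.50) did not pass without replicate 1 or without replicate 3 (adjusted p = 0.0540 and 0.0614) and was 2.79 without GFP-negative replicate 2. Nfasc, a neurofascin that tenascin-R binds, was higher by 1.75 (SE 0.21). On the lower side, Rtn4rl1, a Nogo receptor family member that binds chondroitin sulfate, had -4.47 (SE 0.28), Fn1, fibronectin, -4.15 (SE 0.26) and Fbln2, a fibulin that binds lecticans, -3.97 (SE 0.48). Fbln2 varied among GFP-negative libraries, at 284, 75.4 and 241 CPM.

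Other proteoglycans and tenascins were mostly below the filter: of 16 listed genes 6 were tested, with 1 higher, 4 lower and 1 not passing (55.4% of all tested genes passed), and a median of -0.54. Spock2, a testican, was higher by 0.69 (SE 0.11). App and Aplp2, which exist in part as proteoglycans, had -0.82 (SE 0.10) and -0.52 (SE 0.06), and Tgfbr3, betaglycan, -0.56 (SE 0.15). Tgfbr3 did not pass without replicate 3 (adjusted p = 0.104) or without GFP-positive replicate 3 (0.0510). The remaining tenascins Tnxb and Tnn had at most 11 counts in any library; they were picked after looking at their values.

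**Figure D5:**
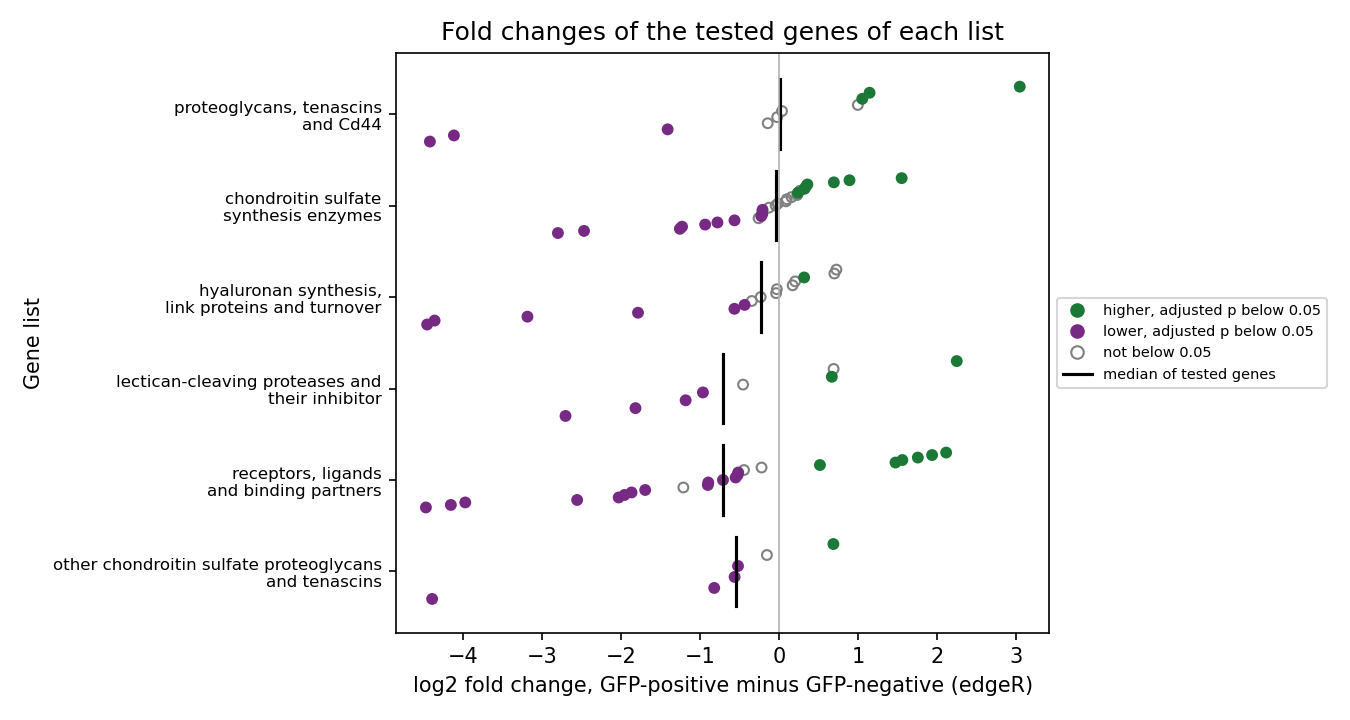
Log2 fold change (GFP-positive minus GFP-negative) of each tested gene in the 10 genes and in 5 lists of related genes, filled where the adjusted p was below 0.05, with a vertical line at the median of each list. The synthesis enzymes spread around a median of -0.044, and the other 4 lists have medians from -0.71 to -0.23.

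The genes whose profile over the 6 libraries was most like that of Tnr, by Euclidean distance between centred log2 CPM among 10138 genes, were Kcnk10, a potassium leak channel (distance 0.12), Shisa7, an auxiliary protein of transmitter receptors (0.23), and Clstn3, a synaptic adhesion protein (0.34). Kcnk10 was at 19.3 ± 2.23 against 2.41 ± 0.927 CPM (SD, n = 3). For Cd44 they were Fn1 (0.49), the fibronectin receptor chain Itga5 (0.54) and Lrrc32, a tether of latent TGF-beta (0.61). Lrrc32 was at 1.21 ± 0.402 against 35.5 ± 2.87 CPM (SD, n = 3). These distances describe 6 libraries in which the sorted fraction makes up most of the difference, and carry no test.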

How the data were processed

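The authors deposited raw read counts per gene for 6 libraries, with no normalization, per the file headers. The kit was SMART-Seq Stranded, per the labels' protocols. TopHat2 2.1.1, SAMtools 1.9, featureCounts 2.0.0 and build mm39 are named in the submitters' processing notes. Not given in the sources used here are the annotation, the strand setting and the treatment of multiply mapped reads. Counts may hold PCR copies, so depth covers counting error at most.

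Groups and replicate numbers came from the titles. Within a group, chi-square per degree of freedom between libraries was 9.83 to 34.2 (genes with at least 20 summed counts), above counting noise, and none was merged. After subtracting group means, libraries with a shared number correlated at 0.389, 0.514 and 0.319 over 12127 genes, all above 0.1, and so count as pairs. The main fit has no block, so its standard errors, intervals and adjusted p leave the pairing out. With the block the SE of Tnc was 0.14 against 0.31 without, and that of Bcan 0.07 against 0.06. The permutation test of the ratios did not keep the pairs either. The blocked value is printed where it changes a call of the 10 genes or a count over a list.

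The test was edgeR 4.0.16 (R 4.3.3) on counts, by its two-sided quasi-likelihood F test after filterByExpr and TMM scaling, with Benjamini-Hochberg adjustment over 14554 genes. It was tested on simulated data. The standard error is |log2 fold change| over the root of F. Alternatives were RLE, upper-quartile, total-count and median-centred scaling, other filters, DESeq2 1.42.0, limma 3.58.1 voom, the replicate block, and leaving out libraries or pairs; total-count and median-centred scaling and the transcript length were chosen after seeing the data. Lengths came from the GENCODE M21 exons, matched by symbol. Upstream sequences are from RefSeq.

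The 10 genes and all lists were chosen with earlier results of these data known. Named genes were the 10, Pdgfra, in each list the 3 largest called fold changes per direction (mean log2 CPM 1 or more), plus the 3 profiles nearest to the members with the most positive and most negative fold change (mean log2 CPM 3 or more).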

Additional observations from a re-analysis of the deposited data

How the results depend on the processing

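The calls of Vcan, Cspg4, Tnr, Ncan, Tnc and Cd44 held, in direction and threshold, under RLE, upper-quartile, total-count and median-centred scaling, both other filters, DESeq2, limma voom, the replicate block and all 9 fits with a library or pair removed. The replicate block made Acan pass (1.04) and gave 2 higher hyaluronan genes, 3 higher proteases and 15 lower receptors and partners, and changed no other call of the 10 genes. Acan was not tested with a CPM of at least 1 in 3 libraries.

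Over those 9 fits, 3 to 4 of the 10 genes were higher and 3 to 4 lower. Synthesis enzymes had 3 to 6 higher and 6 to 10 lower, hyaluronan genes 0 to 2 higher, proteases 1 to 3 higher, and all genes 2450 to 4169 higher (2450 without replicate 3) and 2951 to 4468 lower. In those fits Bcan ranged from -0.19 to -0.085, Acan from 0.75 to 1.57, Cspg5 from -0.048 to 0.16 and Ptprz1 from -0.081 to 0.039. Cspg5 turned to -0.018 without GFP-positive replicate 1, -0.048 without GFP-negative replicate 2 and -0.032 without replicate 2. Ptprz1 turned to 0.039 without GFP-positive replicate 2, 0.039 without GFP-negative replicate 3 and 0.017 without replicate 3. The cause was not tested. No scaling moved the median of all genes by over 0.1. Depth limits Acan (12 to 69 counts) and Cd44 in GFP-positive cells (34 to 98 counts).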
